A study of Rattus norvegicus with 12 samples.

Results

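The genes described here are 10 immediate early and stress genes, Atf3, Atf4, Ddit3, Trib3, Fos, Fosb, Jun, Junb, Egr1 and Gadd45a, measured in bone of prepubertal female rats. A probe set was taken as theirs where the platform annotation gave it exactly 1 gene symbol and that symbol was one of the 10. This gave 15 probe sets of the 31042 tested, or 10 genes of the 14217 with a single symbol. Jun and Trib3 had 3 probe sets each, Fos had 2 and the other 7 genes had 1. The study asked how a soy diet and estradiol compare in their effects on gene expression of growing bone. The 12 Affymetrix rat genome arrays fall into 4 groups of 3. SPI rats ate a diet with soy protein isolate, E2 rats ate the casein diet and received 17β-estradiol from a minipump under the skin, SPI+E2 rats had both, and CAS rats ate the casein diet alone. All were Sprague-Dawley females, sampled on postnatal day 34, with treatment from postnatal day 21 by the sample labels and from 1 day earlier by the study's methods. Each array carried RNA pooled from several rats, taken from the tibia after the marrow had been aspirated and extracted whole, so every cell type left in the bone contributes. Within such bulk samples, fewer cells of a type and less RNA per cell cannot be told apart. The p-values measure the spread between pools, and precision is limited by how many arrays there are.

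Immediate early genes are switched on within minutes of a stimulus without new protein synthesis. Fos, Fosb, Jun and Junb encode subunits of the AP-1 transcription factor, and Egr1 encodes a zinc finger factor of the same early wave. The second branch of the group is the integrated stress response, in which kinases phosphorylate the translation factor eIF2, general translation slows and translation of Atf4 increases. ATF4 then activates genes for amino acid synthesis and transport and also Atf3, Ddit3 (the factor CHOP) and Trib3 (a pseudokinase that restrains ATF4). Atf3 stands in both branches, since it is induced by the integrated stress response, by mitogens and by nerve injury. Gadd45a encodes a small protein of growth arrest and DNA damage. In bone, AP-1 factors are known for their part in osteoblast and osteoclast differentiation, and ATF4 for its part in osteoblasts.

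Promoter sequences from RefSeq (build GRCr8, 250 bases before to 50 after the gene start) were held for 7 of the 10 genes, Fosb, Trib3, Gadd45a, Ddit3, Atf4, Egr1 and Junb. Egr1 is shown for its serum response sites, and Trib3 beside Chac1, another ATF4 target, because both hold the composite site of C/EBP and ATF factors while their values on the arrays differ. Capitals mark the matches, read on both strands.
Egr1 chr18:26736828-26737127, plus strand: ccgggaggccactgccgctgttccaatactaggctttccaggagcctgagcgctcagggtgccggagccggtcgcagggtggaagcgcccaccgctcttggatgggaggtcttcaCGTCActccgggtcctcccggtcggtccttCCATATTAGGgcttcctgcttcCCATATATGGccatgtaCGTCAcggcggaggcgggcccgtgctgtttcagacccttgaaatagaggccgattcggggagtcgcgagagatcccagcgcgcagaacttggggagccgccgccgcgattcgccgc
Chac1 chr3:126795881-126796180, plus strand: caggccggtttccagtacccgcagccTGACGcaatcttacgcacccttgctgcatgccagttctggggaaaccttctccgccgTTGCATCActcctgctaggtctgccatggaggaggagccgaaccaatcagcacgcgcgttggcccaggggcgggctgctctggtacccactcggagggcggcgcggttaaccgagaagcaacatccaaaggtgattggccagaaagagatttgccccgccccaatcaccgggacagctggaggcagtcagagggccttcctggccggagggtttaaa
Trib3 chr3:161275484-161275783, minus strand: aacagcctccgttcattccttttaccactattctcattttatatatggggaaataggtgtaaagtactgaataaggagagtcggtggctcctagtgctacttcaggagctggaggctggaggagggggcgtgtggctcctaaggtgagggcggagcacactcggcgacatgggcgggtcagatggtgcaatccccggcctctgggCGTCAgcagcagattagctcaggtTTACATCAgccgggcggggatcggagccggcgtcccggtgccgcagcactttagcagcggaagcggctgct
In Egr1 the capitals are 2 CArG boxes, CCATATTAGG and CCATATATGG, the sites of serum response factor, between 2 copies of CGTCA. In Chac1 and Trib3 they are the composite sites TTGCATCA and TTACATCA, read as TGATGNAA on the other strand, and 1 copy each of TGACG or its complement CGTCA. The letters TGACG, which form part of a cyclic AMP response element, were in 5 of the 7 members (Trib3, Gadd45a, Atf4, Egr1 and Junb) and in 21.2% of all 33469 promoters of this length. An AP-1 site, TGANTCA, was in 1 of the 7 (Ddit3) and in 7.33% of all. TGATGNAA was in 1 (Trib3) and in 3.98% of all, and the CArG box in 1 (Egr1) and in 1.64% of all. The estrogen response element, GGTCA and TGACC with any 3 bases between them, was in 0 of the 7 and in 0.0269% of all. At so low a share, 0 of 7 says nothing about these members. No promoter was held for Atf3, Jun or Fos, so their sites are unknown here.

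Values are log2 units relative to each probe set's median over the 12 arrays, as the authors centred them, so they hold differences between arrays and no absolute level. For the same reason the files cannot show whether a marker gene is absent. Calls rest on limma at an adjusted p under 0.05, by Benjamini-Hochberg over all 31042 probe sets. Array medians lay between -0.0042 and 0.0072, and arrays of the same group correlated at 0.279 to 0.542. The array SPI 1 received the lowest quality weight, 0.374. Markers of other cell types differed between groups. The mean of 18 sensory neuron probe sets was 0.37 to 0.41 in SPI, 0.28 to 0.29 in E2, -0.25 to -0.23 in SPI+E2 and -0.38 to -0.36 in CAS. The mean of 13 chondrocyte probe sets was -0.42 to -0.35 in SPI, 0.06 to 0.11 in E2, -0.06 to -0.04 in SPI+E2 and 0.34 to 0.41 in CAS. The arrays also differed in genes of the sex chromosomes, although all are labelled female. The Y-linked gene Eif2s3y (1393237_at) lay at 0.26 to 0.86 in SPI, 0.01 to 0.19 in E2, -0.37 to -0.01 in SPI+E2 and -2.20 to -1.82 in CAS. Of 4 Xist probe sets, SPI had 4 lower than CAS, E2 4 and SPI+E2 3, while of 2 Uty probe sets, also Y-linked, 1 was called, lower in SPI. The part of these differences in the results below was not tested.

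Atf3 had the widest range of any member, 0.90 over the 12 arrays, and it was high where E2 was given. Atf3 (1369268_at) stood at -0.22, -0.29 and -0.12 in the SPI pools, 0.39, 0.52 and 0.52 in the E2 pools, 0.12, 0.16 and 0.21 in the SPI+E2 pools, and -0.30, -0.14 and -0.38 in the CAS pools. The E2 arrays lay above all others, the SPI+E2 arrays came next, and the SPI and CAS arrays overlapped. Against CAS, Atf3 rose 1.68-fold with E2 (log2 change 0.75, SE 0.0704, limma adjusted p = 2.92e-05) and 1.35-fold with SPI+E2 (0.44, adjusted p = 0.00297). With SPI the change was 0.06 (95% interval -0.09 to 0.22, adjusted p = 0.595). Only 161 of the 31042 probe sets, 0.519%, rose more than Atf3 with E2, and 114 of these carry a single gene symbol.

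The direct comparisons of the treated groups gave the same order for Atf3. SPI lay below E2 by -0.69 (SE 0.0704, limma adjusted p = 7.3e-05), and SPI+E2 lay above SPI by 0.37 (adjusted p = 0.0048). SPI+E2 lay below E2 by -0.31 (adjusted p = 0.015). That last difference missed the threshold without E2 2, without E2 3 or without SPI+E2 1, with adjusted p = 0.0543, 0.0626 and 0.0554. The rise with E2 held without any single array, at 0.70 to 0.82.

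Atf3 is also a gene of injured sensory neurons, and the nerve lists moved between the groups as well. Of the 18 sensory neuron probe sets, 15 were higher with SPI (median 0.93), 15 with E2 (median 0.76) and 4 with SPI+E2 (median 0.12), each against CAS. In SPI against E2, 5 of the 18 were higher and 13 did not pass the test (median 0.11), and Atf3 was lower. Among 25 probe sets of 16 nerve injury genes, 7 were higher and 1 lower with SPI, 4 higher and 2 lower with E2, and 4 higher and 0 lower with SPI+E2. Gap43, a growth cone protein of regrowing axons, rose by 0.90 with SPI, 0.78 with E2 and 0.48 with the SPI+E2 combination (limma adjusted p = 4.12e-07, 2.02e-06 and 0.000182). Tubb3, a neuronal tubulin, and the neuropeptide gene Adcyap1 rose with SPI by 0.92 and 0.77 and with E2 by 0.88 and 0.62. The neuropeptide genes Vip and Npy followed another order and were highest in SPI+E2, where Atf3 was called higher too. Vip changed by 0.36 with SPI (adjusted p = 0.0754) and -0.20 with E2 (adjusted p = 0.448), and rose by 3.44 with the SPI+E2 combination (adjusted p = 2.78e-08). Npy rose by 0.25 with SPI, fell by 0.38 with E2 and rose by 1.68 with the SPI+E2 combination (adjusted p = 0.0342, 0.00551 and 1.87e-07). The part of nerve in the Atf3 values was not tested.

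**Figure D1:**
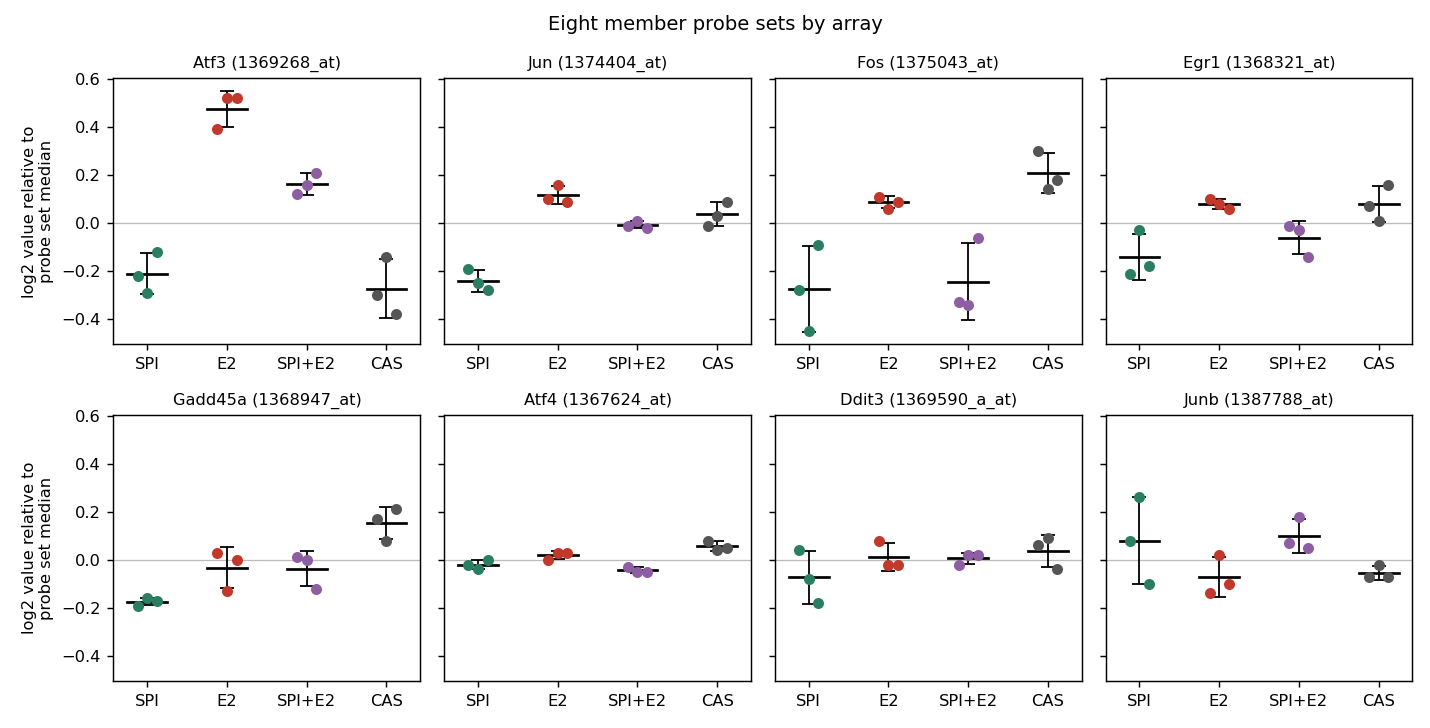
Log2 value relative to the probe set's median (vertical axis) in each array of the SPI, E2, SPI+E2 and CAS groups for 8 member genes, each by its probe set with the smallest p over the 4 groups, with bars at the group mean and its SD (n = 3). Atf3 is highest in the 3 E2 arrays (0.39 to 0.52), Jun is lowest in the 3 SPI arrays (-0.28 to -0.19), and Atf4, Ddit3 and Junb did not pass the test in any comparison.

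With E2, Atf3 was the only member called. Of the 15 probe sets 1 was higher, where 4.99% of all probe sets were higher, and 0 were lower, where 4.36% were lower. At an unadjusted p under 0.05 there were 3, Atf3, Gadd45a and 1 Trib3 probe set, the last 2 with lower values in E2. At least 1.5-fold either way, Atf3 was again the only one of the 15, against 1.64% of all probe sets. The other 14 had changes between -0.28 and 0.10, and their 95% intervals lay between -0.53 and 0.28. The members' median change was -0.01, beside -0.007 over all probe sets.

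With SPI the AP-1 gene Jun, 1 of the Fos probe sets, Gadd45a and Egr1 were lower than in CAS, and Atf3 was not called. Of the 15 probe sets 6 were lower, where 9.07% of all were lower, and 0 were higher, where 8.25% were higher. None of the 15 reached 1.5-fold, a size that 2.43% of all probe sets reached. The members' median was -0.11, beside 0.006 over all. The 6 probe sets belong to 4 genes, and 3 of them measure Jun, so they are not independent.

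Jun encodes the main partner of the FOS proteins in AP-1. Its probe set 1374404_at stood at -0.19, -0.25 and -0.28 in the SPI pools, 0.10, 0.16 and 0.09 in the E2 pools, -0.01, 0.01 and -0.02 in the SPI+E2 pools, and -0.01, 0.03 and 0.09 in the CAS pools. The SPI arrays lay below all other 9. Against CAS the change with SPI was -0.28 (SE 0.0472, limma adjusted p = 0.0018). The 2 other Jun probe sets fell by 0.15 (1369788_s_at, adjusted p = 0.0337) and 0.45 (1389528_s_at, adjusted p = 0.00292), and their SPI arrays too lay below every other array. The call of 1369788_s_at was lost in 8 of 20 alternatives, with an adjusted p of up to 0.115, among them the fits without SPI 1, SPI 2, E2 1 or any single CAS array. The pair 1374404_at and 1389528_s_at was designed from the same expressed sequence, so they share their source. Set against E2, SPI was lower on all 3 (-0.22, -0.35 and -0.55, with 1389528_s_at the largest), and SPI+E2 was higher than SPI on all 3 (0.18, 0.23 and 0.31). For 1369788_s_at the call of SPI+E2 against SPI was lost in 6 of 20 alternatives (limma adjusted p of up to 0.146). Among them were the fits without SPI 1, SPI 2, SPI+E2 2 or SPI+E2 3. For 1389528_s_at it was lost in 6 of 20 (adjusted p of up to 0.108), among them the fits without SPI 1 or any single SPI+E2 array. A limma fit of these 2 groups alone lost the call of all 3 Jun probe sets. For 1374404_at this was the only loss (adjusted p = 0.0627). Neither E2 nor SPI+E2 was called against CAS.

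The 2 Fos probe sets disagreed. Fos 1375043_at stood at -0.28, -0.45 and -0.09 in the SPI pools, 0.11, 0.06 and 0.09 in the E2 pools, -0.33, -0.34 and -0.06 in the SPI+E2 pools, and 0.30, 0.14 and 0.18 in the CAS pools. It was low in both groups on the soy diet, with no overlap with either casein group. Against CAS it fell by 0.48 with SPI (SE 0.0946, limma adjusted p = 0.00453) and by 0.45 with SPI+E2 (adjusted p = 0.0131), and against E2 by 0.36 with SPI and by 0.33 with SPI+E2. The fall with SPI against E2 was not called without SPI 1, SPI 2, E2 1 or E2 3 (adjusted p of up to 0.0788). The fall with SPI+E2 against CAS missed the threshold without CAS 1, without SPI+E2 1 or without SPI+E2 2 (adjusted p of up to 0.0589), and its fall against E2 (adjusted p = 0.0468) was lost in 12 of 20 alternatives, which left out any array of E2 or CAS, SPI 1, SPI+E2 1 or SPI+E2 2 or changed the fit. The other Fos probe set, 1371283_at, was not called in any comparison, and its change with SPI was 0.13 (95% interval -0.03 to 0.30). Which of the 2 follows the Fos transcript more closely cannot be read from these values.

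Egr1 and Gadd45a were lower with SPI as well. Egr1 stood at -0.21, -0.03 and -0.18 in the SPI pools, 0.10, 0.08 and 0.06 in the E2 pools, -0.01, -0.03 and -0.14 in the SPI+E2 pools, and 0.07, 0.01 and 0.16 in the CAS pools. The SPI arrays lay below the E2 and CAS arrays but mixed with those of SPI+E2. The change was -0.22 against CAS (SE 0.0632, limma adjusted p = 0.0341) and also -0.22 against E2 (adjusted p = 0.034). The first was lost in 7 of 21 alternatives (adjusted p of up to 0.131), among them the fits without SPI 1, SPI 3, CAS 1 or CAS 3, and the other in 8 of 21, among them the fits without SPI 1, SPI 3 or any single E2 array.

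Gadd45a stood at -0.19, -0.16 and -0.17 in the SPI pools, 0.03, -0.13 and 0.00 in the E2 pools, 0.01, 0.00 and -0.12 in the SPI+E2 pools, and 0.17, 0.08 and 0.21 in the CAS pools. The CAS arrays were the highest and the SPI arrays the lowest, with E2 and SPI+E2 between them. The fall of 0.33 with SPI (SE 0.0598, limma adjusted p = 0.00289) held in all 21 alternatives. Against CAS it lay at -0.19 with E2 (95% interval -0.32 to -0.06, adjusted p = 0.0787) and likewise at -0.19 with SPI+E2 (adjusted p = 0.0693), neither past the test. The first was called with array weights and with means per gene (adjusted p down to 0.0427), and the other after quantile normalization and with means per gene (down to 0.0407).

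Beside these falls, markers of other tissues were also lower with SPI. Of 13 chondrocyte probe sets, SPI had 11 lower than CAS, E2 had 6 and SPI+E2 had 8, and none was higher. Of 16 skeletal muscle probe sets, 9 were lower and 0 higher with SPI, 1 lower and 1 higher with E2, and 2 lower and 2 higher with SPI+E2. The muscle mean was -0.22 to -0.15 in the SPI arrays, 0.01 to 0.04 in E2, 0.03 to 0.11 in SPI+E2 and -0.01 to 0.04 in CAS, and SPI was also the group with the lowest Jun 1374404_at values. Of 13 osteoblast and osteocyte probe sets, 3 were lower with SPI, Phex at -0.79, Mepe at -0.48 and Dmp1 at -0.45. The other 10 did not pass the test, and the list's median was -0.05. The part of these tissues in the lower Jun, Fos, Egr1 and Gadd45a values was not tested.

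**Figure D2:**
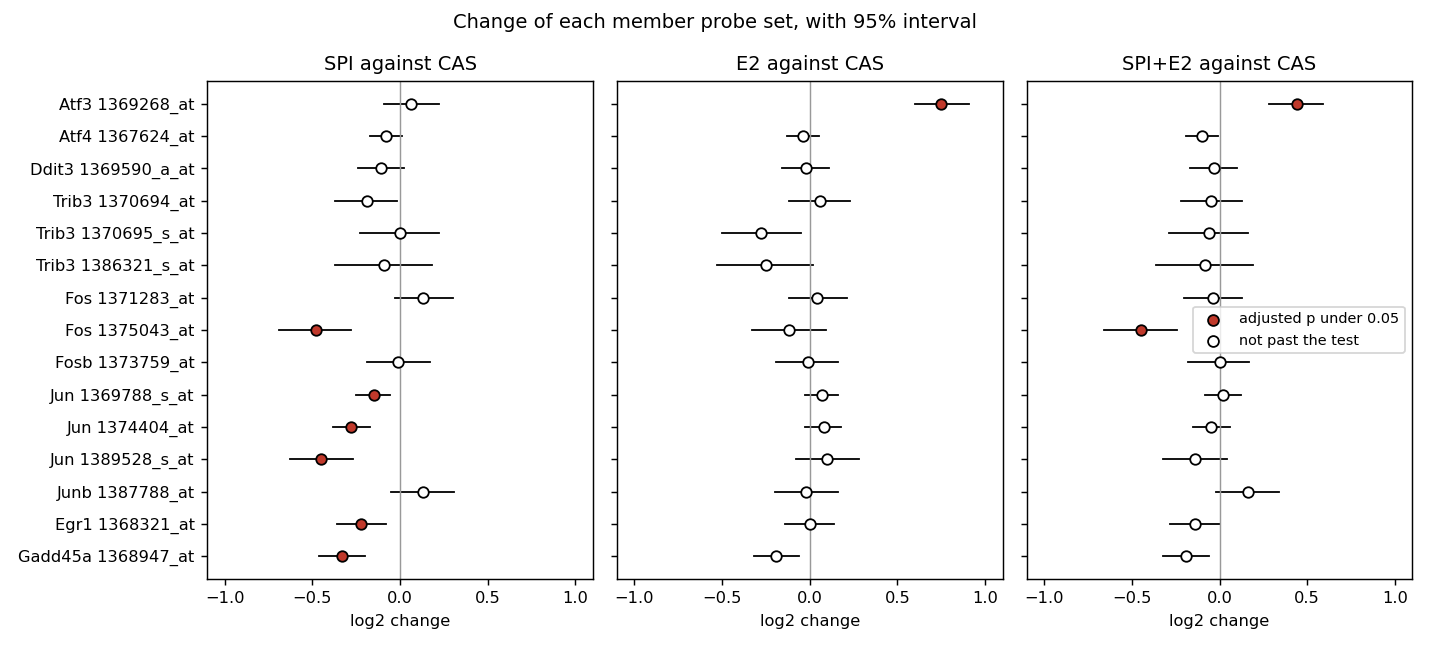
Log2 change against CAS (horizontal axis) of the 15 member probe sets with SPI, E2 and SPI+E2, with the 95% interval from limma and filled points where the adjusted p was under 0.05. With SPI 6 probe sets are lower, with E2 only Atf3 is called, at 0.75, and with SPI+E2 Atf3 is higher at 0.44 and Fos 1375043_at lower at -0.45.

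With SPI+E2 against CAS, 1 of the 15 probe sets was higher (Atf3), where 4.14% of all were higher, and 1 was lower (Fos 1375043_at), where 4.33% were lower. None reached 1.5-fold, which 0.474% of all did. The other 13 had changes between -0.19 and 0.16. All comparisons against CAS share the same 3 CAS arrays, so their values are given side by side and not correlated.

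Between the treated groups the calls fell on Atf3, Jun, Fos and Egr1. SPI against E2 gave 6 lower probe sets of 15 (Atf3, the 3 of Jun, Fos 1375043_at and Egr1) where 8.75% of all were lower, and 0 higher where 7.98% were higher. SPI+E2 against SPI gave 4 higher (Atf3 and the 3 of Jun), where 5.56% of all were higher, and 0 lower, where 5.83% were lower. SPI+E2 against E2 gave 2 lower (Atf3 and Fos 1375043_at), where 5.53% of all were lower, and 0 higher, where 4.92% were higher. The interaction, the effect of E2 on the soy diet minus its effect on casein, was called for Gadd45a as positive, where 4.17% of all were, and for Atf3 as negative, where 5.75% were, and these calls were lost in 10 and 9 of 20 alternatives. In an F test over the 4 groups 7 of the 15 probe sets passed, from 5 genes, beside 25.2% of all probe sets.

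Atf4, Ddit3 and Trib3 did not pass the test in any of the 7 comparisons. Atf4, the central factor of the integrated stress response, stood between -0.05 and 0.08 on all 12 arrays, a range of 0.13. Its changes against CAS were -0.08 with SPI, -0.04 with E2 and -0.10 with the SPI+E2 combination, the last with a 95% interval of -0.19 to -0.01 and adjusted p = 0.146 (limma). The same fit without moderation of the variances called Atf4 lower with SPI and with SPI+E2, at adjusted p = 0.00815 and 0.00386. Ddit3 changed by -0.11 with SPI (95% interval -0.24 to 0.02), -0.02 with E2 (-0.16 to 0.11) and -0.03 with SPI+E2 (-0.17 to 0.10). These intervals hold no rise in Ddit3 of the size seen for Atf3 with E2.

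The 3 Trib3 probe sets went different ways. With E2 against CAS they changed by 0.06, -0.28 and -0.25, for 1370694_at, 1370695_s_at and 1386321_s_at in this order. In the third E2 pool the first of them stood at 0.24 and 1370695_s_at at -0.40, and in the first SPI pool at -0.30 and 0.26. The comparison of SPI with E2 on 1370694_at, -0.25, just missed the threshold (adjusted p = 0.0511) and was called in 6 of 20 alternatives. Fosb and Junb, the other AP-1 members, were not called either. Fosb changed by at most 0.01 in size against CAS, with 95% intervals between -0.19 and 0.17, and Junb by 0.13 with SPI, -0.02 with E2 and 0.16 with the SPI+E2 combination.

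The other genes of the same pathways are read beside the shares of all probe sets called against CAS, 8.25% higher and 9.07% lower with SPI, 4.99% and 4.36% with E2, and 4.14% and 4.33% with SPI+E2. Of 57 probe sets of 36 further immediate early genes, 3 were higher and 9 lower with SPI, 3 higher and 2 lower with E2, and 4 higher and 3 lower with SPI+E2, each against CAS. With E2 the 3 higher ones were Egr2, Ccn1 and Ccn2, a share near that of all probe sets. The 2 lower ones were Dusp2, a phosphatase gene of the mitogen kinases, at -0.46, and Klf6, a zinc finger factor, at -0.36 (limma adjusted p = 0.00263 and 0.0348). This Klf6 probe set, 1395557_at, also fell by 0.43 with SPI and by 0.62 with SPI+E2. The other Klf6 probe sets were not called against CAS with any treatment, with changes between -0.094 and 0.082. Dusp1, a relative of Dusp2, fell on 1368147_at by 0.40 with SPI and by 0.49 with SPI+E2. Its other probe set was also called lower with SPI, at -0.385, but was not called with SPI+E2, at -0.143. Egr2, a zinc finger factor and a regulator of myelination in Schwann cells, stood at -0.02, 0.21 and 0.19 in the SPI pools, 0.62, 0.48 and 0.47 in the E2 pools, -0.28, -0.25 and -0.11 in the SPI+E2 pools, and 0.02, -0.10 and -0.09 in the CAS pools. These values are of 1387306_a_at. Its E2 arrays lay above all others, and the rise was 0.58 (SE 0.0753, limma adjusted p = 0.000361). In SPI+E2 this probe set lay at -0.16 against CAS (adjusted p = 0.24), unlike Atf3. The other Egr2 probe set was not called against CAS in any treated group. It changed by 0.194 in E2, 0.158 in SPI and -0.008 in SPI+E2, so the Egr2 rise rests on 1387306_a_at.

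Schwann cell markers also differed between the groups. Their mean over 11 probe sets was 0.59 to 0.62 in SPI, 0.10 to 0.11 in E2, -0.31 to -0.30 in SPI+E2 and -0.23 to -0.19 in CAS. Single markers had other orders. Pmp22, a protein of peripheral myelin, was at 0.38 to 0.43 in SPI and 0.64 to 0.71 in E2. It was at -0.64 to -0.60 in SPI+E2 and -0.42 to -0.38 in CAS. Pmp22 was thus highest in E2, as Egr2 1387306_a_at was. Prx, another myelin gene, rose by 0.91 with SPI and 1.05 with E2 and changed by 0.00 with SPI+E2, while Gfap, a filament gene of glia, rose by 0.76 with SPI and fell by 1.13 with E2. Mbp (1387341_a_at) and Mag (1368861_a_at), also myelin genes, rose with SPI, by 0.95 and 0.97. With E2 they were not called (-0.03 and -0.27, limma adjusted p = 0.841 and 0.219), unlike Pmp22 and Prx. The part of Schwann cells in the Egr2 values was not tested.

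Ccn1, a matrix protein gene of the early response, changed by 0.09 with SPI (limma adjusted p = 0.612) and rose by 0.44 with E2 and by 0.37 with SPI+E2 (adjusted p = 0.0172 and 0.0487). Ccn2, its relative, rose in all 3, by 0.45, 0.22 and 0.46. Nfil3, a bZIP repressor, fell by 0.44 with SPI (adjusted p = 0.000144). Its arrays were -0.46, -0.52 and -0.38 in SPI, 0.13, 0.12 and 0.08 in E2, 0.01, 0.07 and -0.05 in SPI+E2, and -0.06, 0.02 and -0.01 in CAS, low in SPI alone as for Jun.

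Among 26 probe sets of 14 other ATF, CREB and C/EBP genes, 5 were lower and 1 higher with SPI, 1 was higher with E2 and 1 with SPI+E2. Atf5, a close relative of Atf4, stood at -0.51, -0.28 and -0.39 in the SPI pools, 0.14, 0.12 and 0.18 in the E2 pools, -0.01, -0.01 and 0.01 in the SPI+E2 pools, and -0.01, 0.03 and 0.01 in the CAS pools. Its fall with SPI was 0.40 (SE 0.0563, limma adjusted p = 0.000495), and SPI+E2 was higher than SPI by 0.39 (adjusted p = 0.000775). Crem, a factor of the cyclic AMP response, fell on 1393550_at by 0.38 with SPI (adjusted p = 0.0213). Another Crem probe set was also called lower with SPI, at -0.274. The remaining Crem probe sets were not called with SPI, and their changes lay between -0.294 and 0.01. The C/EBP gene Cebpd fell by 0.28 with SPI and rose by 0.20 with E2 on 1368813_at, and its rise with SPI+E2, 0.31, was on 1387343_at.

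Part of the targets of the integrated stress response were lower in both groups on soy, while Chac1 rose in both groups that received E2. Of 38 probe sets of 26 genes, 13 were lower and 1 higher with SPI (median -0.15), 2 lower and 1 higher with E2 (median 0.02), and 10 lower and 1 higher with SPI+E2 (median -0.11). The medians over all probe sets were 0.006, -0.007 and 0.019. The 13 lower with SPI include every Vldlr probe set and more than 1 of Cars1, so they are not independent. Asns, the asparagine synthetase that ATF4 activates, stood at -0.52, -0.23 and -0.20 in the SPI pools, 0.18, 0.18 and 0.34 in the E2 pools, -0.18, -0.21 and -0.27 in the SPI+E2 pools, and 0.26, 0.29 and 0.31 in the CAS pools. It fell by 0.61 with SPI and 0.51 with SPI+E2 (limma adjusted p = 0.000322 and 0.00264), and its change with E2 was -0.06 (adjusted p = 0.773). Cars1, which charges cysteine transfer RNA, fell on 1391572_at by 0.43 with SPI and by 0.40 with SPI+E2, but its probe sets disagreed. Another Cars1 probe set was called lower with SPI, at -0.41, and was not called with SPI+E2, at -0.088. The remaining ones were called in neither, at -0.127 and -0.023 with SPI and -0.079 and 0.039 with SPI+E2. Mthfd2, a mitochondrial folate enzyme, fell by 0.32 with SPI and by 0.32 with SPI+E2. Mthfd2 fell with E2 as well, by 0.25 (adjusted p = 0.0272), so its fall was not limited to the soy groups. Vldlr, a lipoprotein receptor, fell by 0.39 with SPI, and Sesn2, a stress-induced regulator of mTORC1, by 0.21 with E2 on 1391607_at. The other Sesn2 probe set was not called with E2, at -0.031.

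Chac1 encodes an enzyme that degrades glutathione. It stood at -0.33, -0.29 and -0.24 in the SPI pools, 0.26, 0.24 and 0.29 in the E2 pools, 0.31, 0.37 and 0.37 in the SPI+E2 pools, and -0.36, -0.33 and -0.38 in the CAS pools. All 6 arrays with E2 lay above the 6 without it. The rises against CAS were 0.62 with E2 and 0.71 with SPI+E2 (both with SE 0.0457, limma adjusted p = 5.29e-06 and 6.66e-06), and the change with SPI was 0.07 (adjusted p = 0.34). Where Atf3 was lower in SPI+E2 than in E2, Chac1 in SPI+E2 differed from E2 by 0.09 (adjusted p = 0.231). Trib3, whose promoter above holds the same composite site, was not called in either group.

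**Figure D3:**
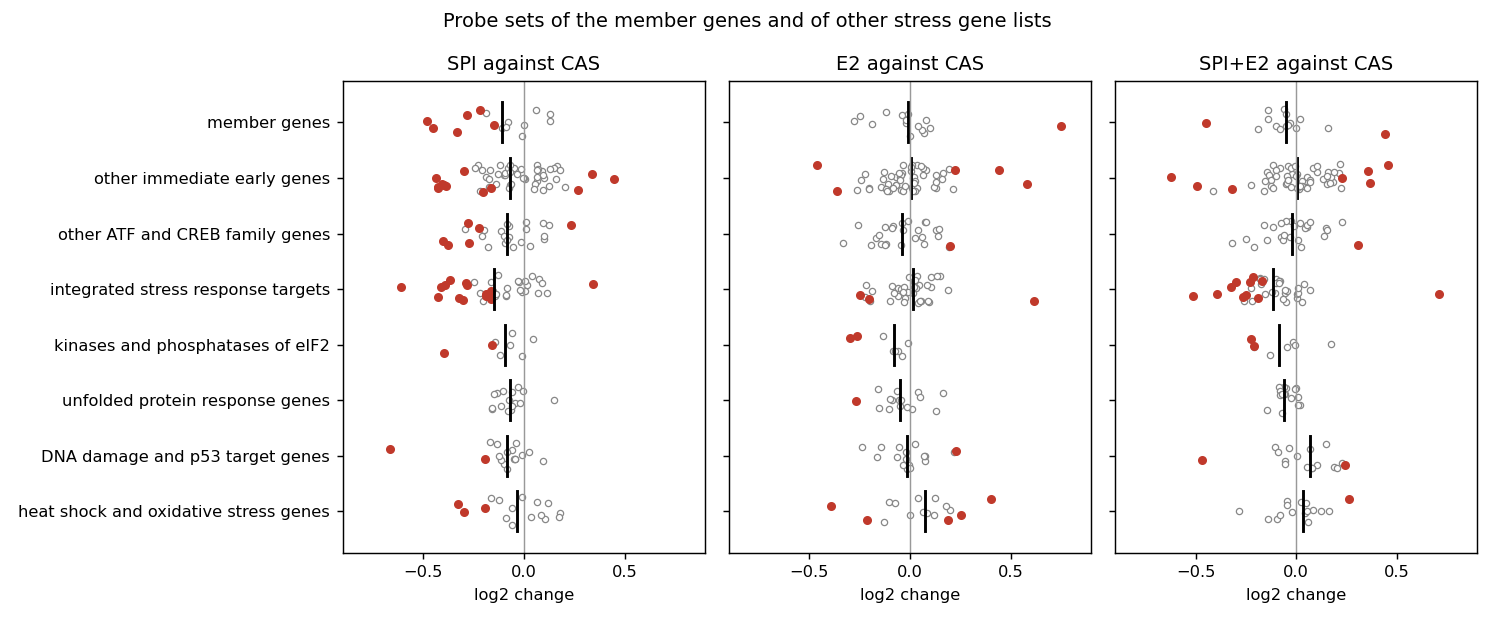
Log2 change against CAS (horizontal axis) of each probe set of the 10 member genes and of 7 further stress gene lists, with filled points at an adjusted p under 0.05 in limma and a bar at each list's median; vertical scatter within a row has no meaning. With E2 the 2 points farthest to the right are Atf3 (0.75) and Chac1 (0.62), and with SPI the integrated stress response targets have 13 of 38 probe sets lower. Some of these 13 measure the same gene.

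Of the upstream and parallel stress programs, the regulators of eIF2 and the heat shock and oxidative stress genes held most of the calls with E2. Of 8 probe sets of the eIF2 kinases and phosphatases, 2 were lower with each treatment and 0 higher. Eif2ak1, the heme-regulated kinase, fell by 0.26 and 0.30 on its 2 probe sets with E2 (limma adjusted p = 0.005 and 0.000942) and by 0.21 and 0.22 with SPI+E2. With SPI it fell by 0.16 on 1 of them (adjusted p = 0.0475), and Eif2ak2, the kinase activated by double-stranded RNA, fell by 0.39 (adjusted p = 0.0384). Eif2ak2 stood at -0.53, -0.07 and -0.06 in the SPI pools and 0.35, 0.09 and 0.09 in the CAS pools. The size of its fall thus rests largely on SPI 1 and CAS 1. Of 16 probe sets of 13 unfolded protein response genes, 1 was called in these 3 comparisons, Sdf2l1, a chaperone partner in the endoplasmic reticulum, which fell by 0.27 with E2 (adjusted p = 0.00424).

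Of 17 probe sets of 13 DNA damage and p53 genes, 2 were lower with SPI (Cdkn1a and Ccng1), 1 was higher with E2, and 1 was higher and 1 lower with SPI+E2. The last 2 are both of Cdkn1a, the cell cycle inhibitor p21, whose probe sets disagreed. Cdkn1a 1387391_at changed by -0.67 with SPI, -0.24 with E2 and -0.47 with the SPI+E2 combination, and 1388674_at by -0.08, 0.23 and 0.24. Of 16 probe sets of 11 heat shock and oxidative stress genes, 3 were lower with SPI (Hspa1a, Hspb1 and Bag3), 3 were higher and 2 lower with E2, and 1 was higher with SPI+E2. Nqo1, a quinone reductase induced by oxidative stress, rose by 0.40 with E2 (limma adjusted p = 0.000113) and by 0.26 with SPI+E2 (adjusted p = 0.00446), each against CAS, and SPI+E2 lay at -0.14 against E2 (adjusted p = 0.0646). Gclm, a subunit of the enzyme for glutathione synthesis, fell by 0.39 with E2 (adjusted p = 0.0239). Hspa1a, the inducible HSP70, fell by 0.33 with SPI and rose by 0.25 with E2 (adjusted p = 0.0043 and 0.0259).

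The genes whose values over the 12 arrays were most like those of Atf3 came from outside the member genes. Across the arrays, which share their groups and their processing, the highest Pearson correlations with Atf3 were those of Cystm1 (0.978), Cfi (0.967), Tagln (0.954), Nqo1 (0.953), Atp9a (0.951), Tsc22d3 (0.950), Retreg1 (0.948), Flii (0.947), Flrt2 (0.941) and Igf2 (0.938). They were the first 10 genes in a ranking of 20825 probe sets with a single symbol, each gene taken once, and are given as a description. Cfi, the complement factor I gene, rose by 0.57 with E2 (limma adjusted p = 0.000469), and Tsc22d3, a gene induced by glucocorticoids, by 0.20 (adjusted p = 0.029). Among the members the closest was Jun 1369788_s_at, with a correlation of 0.671 at rank 649, and Trib3 1370695_s_at was at -0.615.

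**Figure D4:**
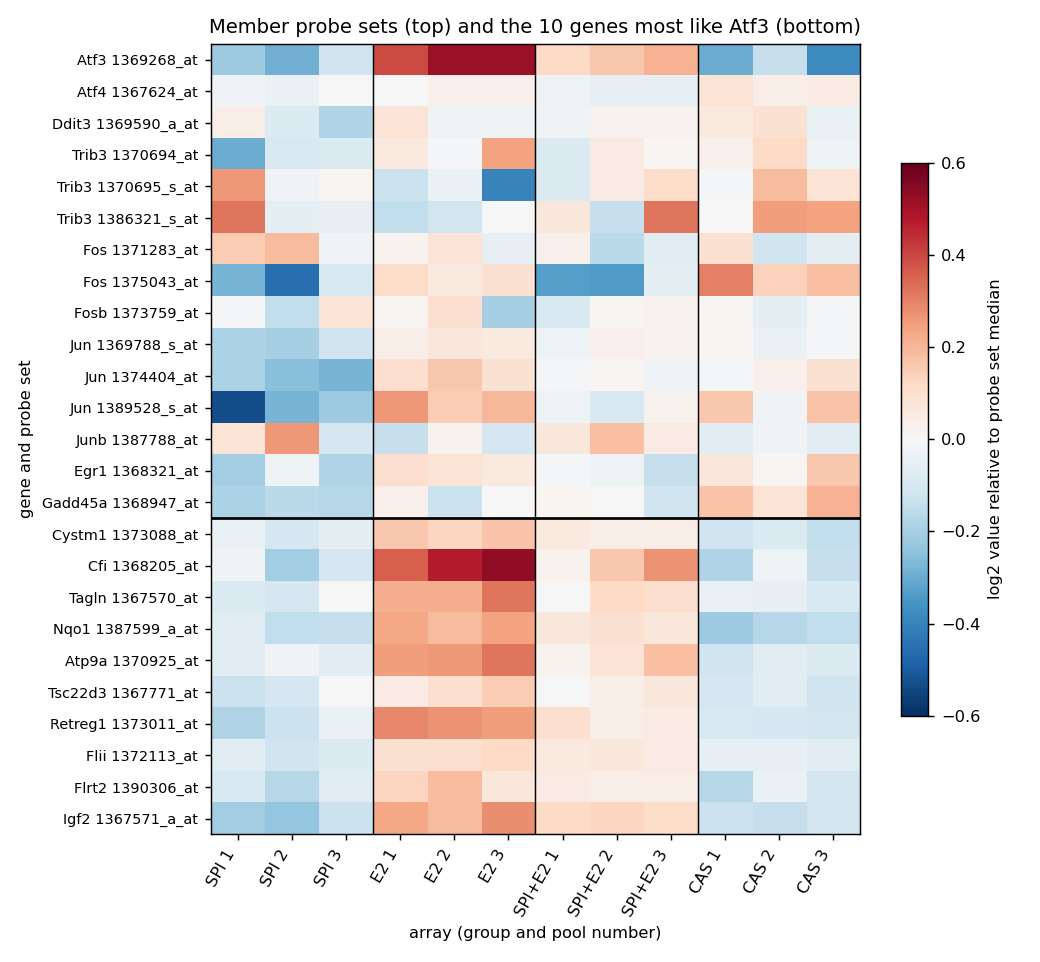
Log2 value relative to the probe set's median (colour) in each of the 12 arrays (columns, by group and pool number) for the 15 member probe sets (upper rows) and the 10 genes most like Atf3 (lower rows). The lower rows were chosen by their correlation with Atf3 over these 12 arrays, so they are high in the 3 E2 arrays and low in SPI and CAS as Atf3 is. The closest member, Jun 1369788_s_at, has a correlation of 0.671 with Atf3.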

How the data were processed

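RNA of 12 pools was measured on Affymetrix rat genome arrays. Per the submitters' processing notes the authors used GCOS and RMA (versions not given in the sources used here), and by the study's methods the deposited log2 values were then normalized per chip and per gene in GeneSpring. Each probe set has a median of 0 over the 12 arrays, and values run from -2.2 to 3.466. The file does not state the base of the logarithm, which was taken as 2 from the methods. Probe intensities were not used, so depth of signal over background is unknown, and the number of sample columns not used was 0.

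The 57 control probe sets of the 31099 were set aside, and 31042 were fitted with limma 3.58.1 in R 4.3.3, as 1 model over the 4 groups with Benjamini-Hochberg adjustment over all. Gene names came from the platform annotation, which gave 1 symbol to 20826 probe sets, several to 436 and none to 9780, and all 15 member probe sets carry a current symbol. Named were all member probe sets, up to 3 genes with the largest called change per treatment in each stress and nerve injury list, and the 10 genes most correlated with Atf3. Members and gene lists were chosen with earlier results of these data known. Marker lists of cell types are given mainly by counts. The genes of the sex chromosomes and a few list examples were chosen after their values were seen.

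Same-numbered pools were compared as deviations from group means and correlated at -0.0741 to 0.244 (18 pairs), so the numbers were not taken to pair the samples. The fit was tested on simulated data with 200 changed probe sets. Alternatives were a replicate block, 2-group fits, array weights, quantile normalization, trend and robust variances, median centring, probe sets with 1 symbol, the ANOVA of the methods without moderation, means per gene, a 1.5-fold rule with no test, and leaving out each array, all run on the member genes. Promoters came from RefSeq (GRCr8), with coordinates and strand as in that table.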

Additional observations from a re-analysis of the deposited data

Results flagged for a closer look

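For 2 members the effect of E2 differed between the diets by the test of the interaction itself (limma, E2 effect on soy minus E2 effect on casein). For Atf3 the difference was -0.38 (SE 0.0995, adjusted p = 0.0323), with rises of 0.37 on soy and 0.75 on casein. For Gadd45a it was 0.32 (SE 0.0845, adjusted p = 0.0324), with changes of 0.13 on soy and -0.19 on casein, neither past the test on its own. The Atf3 difference lost its call in 9 of 20 alternatives and the Gadd45a difference in 10 of 20.

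Among the other stress genes described, Egr2 1387306_a_at had a difference of -0.92 (SE 0.107, limma adjusted p = 0.00013). Its change with E2 was -0.34 on soy and 0.58 on casein. Nfil3 had 0.34 (SE 0.0739, adjusted p = 0.0121), with 0.46 on soy and 0.13 on casein. Sdf2l1 had 0.29 (SE 0.0704, adjusted p = 0.0208), with 0.02 on soy and -0.27 on casein.

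Genes of nerve differed between the diets by the same test. The nerve injury genes Tubb3, Gap43 and Adcyap1 had differences of -1.44 (SE 0.0801), -1.19 (SE 0.071) and -1.41 (SE 0.181), each lower with E2 on soy and higher on casein. Vip and Npy ran the other way, at 3.28 (SE 0.178) and 1.81 (SE 0.104), with rises on soy of 3.08 and 1.43, against -0.20 and -0.38 on casein. The myelin genes Pmp22 and Prx had -2.11 (SE 0.0615) and -1.95 (SE 0.0756). The adjusted p-values of these 7 ran from 7.71e-09 for Pmp22 to 0.000293 for Adcyap1. No cause of these differences was tested.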

How the results depend on the processing

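Of the alternatives, none reversed a direction that was called. The Atf3 rises with E2 and with SPI+E2 against CAS, its lower value in SPI than in E2 and its higher value in SPI+E2 than in SPI kept their call in all 21 alternatives. With a 1.5-fold rule and no test, the count of member probe sets was 0 for SPI and 0 for SPI+E2 against CAS, 1 for SPI against E2, and 0 for SPI+E2 against SPI, 0 for SPI+E2 against E2 and 0 for the interaction, since most changes were smaller than 1.5-fold. With E2 against CAS the count was 2 with array weights, and 2 genes with means per gene, in both cases with Gadd45a added to Atf3. It was 1 for SPI+E2 against SPI in a 2-group fit, 1 for SPI+E2 against E2 with trend and robust variances, and 1 for the interaction both after quantile normalization and in the unmoderated ANOVA, where the Atf3 interaction stayed at -0.38 (-0.3783) with adjusted p = 0.0514; the causes were not tested. Leaving out single arrays gave 1 to 2 member probe sets for SPI+E2 against CAS, 2 to 4 for SPI+E2 against SPI, 0 to 2 for SPI+E2 against E2 and 0 to 2 for the interaction. It gave Atf3 differences of -0.3592 to -0.2911 for SPI+E2 against E2 and -0.4452 to -0.3262 for the interaction, with adjusted p-values of up to 0.0626 and 0.0814. SPI against CAS gave 4 to 6 member probe sets and E2 against CAS 1. With the replicate block the count was 5 for SPI against CAS, where the Egr1 call was lost, 1 for E2 and 2 for SPI+E2, and 6 probe sets passed the F test. Among the single probe sets of the members other than Atf3, 1901 values kept their side of the threshold over the alternatives, 66 lost the call, 19 gained it and 2 uncalled values moved. These counts leave out Atf3. Its call was lost in 3 of 21 alternatives for SPI+E2 against E2 and in 9 of 20 for the interaction. The centred values limit what can be said: neither levels nor signal over background can be read.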
